A study of Rattus norvegicus with 10 samples.

Results

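Mitosis and G2/M genes were examined in rat liver as a list of 44 genes whose products carry a cell from G2 into and through mitosis. A gene was measured where the accession of an array probe led to its symbol, which held for 33 of the 44 genes with 43 of the 41012 probes. No probe was named here for Bub1b, Cdc25c, Kif4a, Top2a, Nusap1, Ndc80, Melk, Mki67, Anln, Cdca3 and Ncapg. The array reads each gene through a short probe, so 1 probe per gene is described, the brightest over all arrays, with 13426 genes named in the same way as the background.

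The livers came from male rats, Wistar by the study's methods, 24 h after total-body irradiation (TBI) or from unirradiated animals, with 1 array per rat. The control group held 3 rats that were neither irradiated (0 Gy) nor given the drug. The TBI group held 3 rats exposed to 6.5 Gy of 60Co gamma rays without the drug. The MASM + TBI group held 4 rats that received MASM, a derivative of the plant alkaloid matrine, by gavage at 30 mg/kg body weight a day for 3 days before 6.5 Gy. The methods of the study state another TBI dose than the labels, and the labels are followed here. Livers of animals given MASM alone were not analysed here, so MASM is seen only among irradiated rats.

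The slide, which holds up to 4 arrays, differed between the groups. All 3 control rats and MASM + TBI rat 3 lay on slide 1, the 3 TBI rats on slide 2, and MASM + TBI rats 1, 2 and 4 on slide 3. TBI and slide 2 therefore cannot be told apart, while 1 irradiated rat shared its slide with the controls. A column heading in the study places the control and TBI arrays the other way round. On the arrays labelled control, Cdkn1a, the p53-induced inhibitor of cyclin-dependent kinases, was at 8.01, 8.25 and 8.84 on the log2 scale, and on the arrays labelled TBI at 13.47, 13.67 and 14.06. All 10 hepatocyte markers were well above background on every array, with 0 passing the limma test in TBI or in MASM + TBI against control (1 higher in each by unadjusted p and a fold of at least 1.5). In bulk liver RNA, fewer cells of a type and less RNA per cell cannot be told apart.

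A cell enters mitosis when cyclin-dependent kinase 1, bound to A- and B-type cyclins, is activated, and it leaves mitosis when the anaphase-promoting complex has the cyclins and securin degraded. In between, kinesin motors and microtubule-binding proteins build the spindle, kinetochore proteins attach the chromosomes to it, and the spindle checkpoint delays anaphase until every chromosome is attached. Most cells of the adult liver rest outside the cell cycle, and the genes for these proteins are transcribed mainly in cells that have passed S phase. Their promoters are known for the cell cycle genes homology region (CHR, TTTGAA), bound by complexes built on MuvB, and for CCAAT boxes, bound by NF-Y. DNA damage halts cells in G2 as well as in G1, with p53 and Cdkn1a among the best known routes.

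The promoter letters are shown first, because they hold the motifs for which these genes are known, in genes that changed and in genes that did not pass the test. The windows run from 250 bases before to 50 bases after each RefSeq start in the assembly GRCr8, and 37 of the 44 genes had a window. CHR was searched as TTTGAA and the CCAAT box as CCAAT, each on both strands. CHR was found in 27 of the 37 windows (73%), against 18.3% of all 33469 promoter windows and 17.1% of the 21851 windows of protein-coding genes. At least 1 CCAAT box was found in 28 of the 37 (75.7%), against 37.5% of all windows. CHR and a CCAAT box occurred together in 22 of the 37 (59.5%), against 7.41% of all windows. A match is a description of letters and says nothing of binding. A CHR and a CCAAT box on the other strand can share a base, as in the Cdca8 window, where they overlap by 1 base.

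Of the genes with a window and a probe, 14 were lower in TBI and 12 were not called in TBI by the limma test described below. CHR stood in 71.4% of the former and 66.7% of the latter, and at least 1 CCAAT box in 78.6% and 83.3%. The 200 bases before the start are shown for 4 genes that were lower in both irradiated groups and for 2 that were not called in either, with CHR and CCAAT motifs on either strand in capitals. The first lies at chr20:19265093-19265292 (+ strand), followed by chr8:79981659-79981858 (- strand), chr20:5000729-5000928 (+ strand) and chr1:143659281-143659480 (+ strand). The windows of Cks2, at chr17:13727520-13727719 (- strand), and Cdc20, at chr5:137255800-137255999 (- strand), belong to the genes that were not called.
Cdk1: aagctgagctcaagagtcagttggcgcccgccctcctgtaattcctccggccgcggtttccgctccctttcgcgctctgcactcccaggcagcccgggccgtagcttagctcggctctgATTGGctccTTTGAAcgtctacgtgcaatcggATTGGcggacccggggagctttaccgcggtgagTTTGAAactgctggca
Ccnb2: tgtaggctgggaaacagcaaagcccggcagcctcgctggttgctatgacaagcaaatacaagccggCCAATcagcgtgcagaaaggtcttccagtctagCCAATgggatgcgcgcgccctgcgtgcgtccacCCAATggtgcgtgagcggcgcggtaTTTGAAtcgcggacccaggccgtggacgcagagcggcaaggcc
Kifc1: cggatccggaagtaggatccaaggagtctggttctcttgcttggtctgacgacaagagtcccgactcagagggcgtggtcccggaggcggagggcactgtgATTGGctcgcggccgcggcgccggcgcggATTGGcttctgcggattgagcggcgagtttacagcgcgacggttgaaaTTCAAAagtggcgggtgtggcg
Prc1: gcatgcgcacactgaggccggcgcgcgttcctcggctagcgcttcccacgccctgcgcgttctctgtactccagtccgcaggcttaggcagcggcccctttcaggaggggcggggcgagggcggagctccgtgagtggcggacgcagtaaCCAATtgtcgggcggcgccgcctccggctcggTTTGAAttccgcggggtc
Cks2: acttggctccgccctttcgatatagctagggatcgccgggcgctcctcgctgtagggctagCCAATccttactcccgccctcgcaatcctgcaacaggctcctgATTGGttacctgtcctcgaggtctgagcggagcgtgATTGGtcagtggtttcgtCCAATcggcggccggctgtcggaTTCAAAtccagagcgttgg
Cdc20: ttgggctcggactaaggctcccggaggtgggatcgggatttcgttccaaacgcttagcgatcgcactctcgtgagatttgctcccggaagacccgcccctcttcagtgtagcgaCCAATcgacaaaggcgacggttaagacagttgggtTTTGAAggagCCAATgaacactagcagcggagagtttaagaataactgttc

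In the 4 windows of genes that were lower, capitals mark 2 CHR and 2 CCAAT motifs for Cdk1, 1 and 3 for Ccnb2, 1 and 2 for Kifc1, and 1 and 1 for Prc1. The window of Cks2 carries 1 CHR and 4 CCAAT motifs and that of Cdc20 carries 1 and 2, although neither gene passed the test in an irradiated group.

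**Figure D1:**
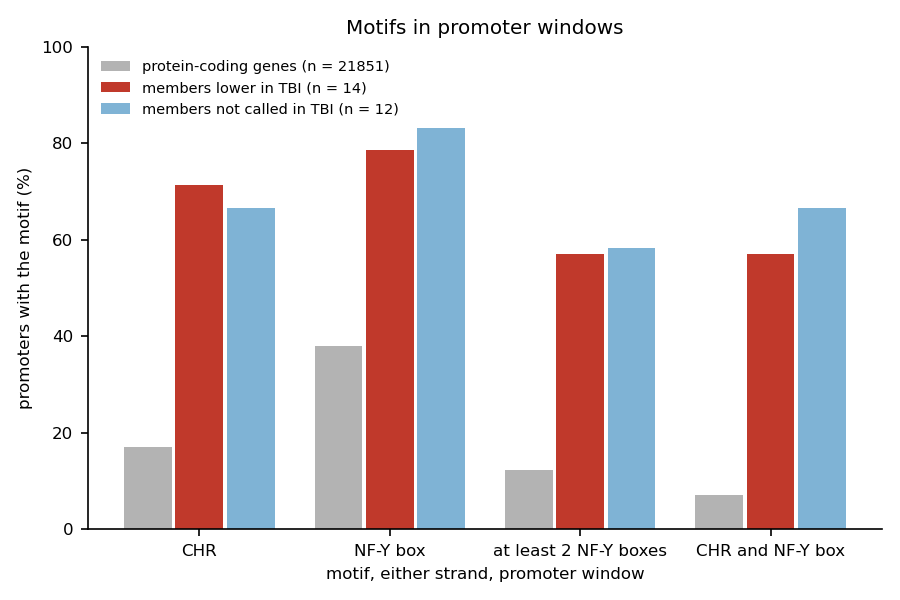
Share of 300-base promoter windows (vertical axis, %) that hold each motif on either strand (horizontal axis; NF-Y box stands for the CCAAT box), for protein-coding genes, for mitosis and G2/M genes lower in TBI and for those not called in TBI. CHR stood in 17.1%, 71.4% and 66.7% of the 3 sets.

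After TBI, most of the measured mitosis and G2/M genes were lower than in control. Of the 33 genes, 20 passed the limma test with a lower signal in TBI than in control (adjusted p under 0.05 over all 40945 probes and a fold of at least 1.5), and 0 passed with a higher signal. Over the 13426 genes the same rule called 2.74% lower and 2.44% higher. With arrays scaled to their 75th percentile in place of quantile normalization, these shares were 10.5% and 4.47%, and 24 of the 33 genes were lower and 0 higher. By unadjusted p and the same fold, 24 of the 33 were lower (5.59% of all genes) and 0 higher (7.54%). The median log2 difference was -1.74 over the 33 genes and -0.01 over all genes. For 26 of the 33 genes every TBI rat lay below every control rat, against 17.5% of all genes. The lower genes included the mitotic kinase Cdk1 and its cyclins, Plk1, checkpoint genes such as Ttk and Bub1, and the kinesins Kif20a and Kifc1, whereas Cks2, Aurka and Cdc20 were not called.

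In MASM + TBI rats the genes of this list were likewise lower than in control. Of the 33 genes, 22 were lower and 0 higher, where 1.97% of all genes were called lower and 0.931% higher. By unadjusted p and the same fold, 25 were lower (5.68% of all genes) and 0 higher (3.5%). The median log2 difference was -1.61 over the 33 genes and -0.00067 over all genes. Every MASM + TBI rat lay below every control rat for 26 genes, against 12.1% of all genes. Both comparisons use the same 3 control rats. The numbers of rats, and not a sequencing depth, limit the precision of these array values. A background correction by normexp in place of the scanner's own left 13 of 33 genes lower in TBI and 12 in MASM + TBI (1.25% and 1.19% of all genes). After adjustment, the methods' t-test left 0 in each (0.0149% and 0.0372% of all genes). By its unadjusted p and a fold of at least 1.5, it left 24 in each. Without control rat 2, 14 genes were lower in MASM + TBI and 15 in TBI (1.01% and 1.61% of all genes).

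**Figure D2:**
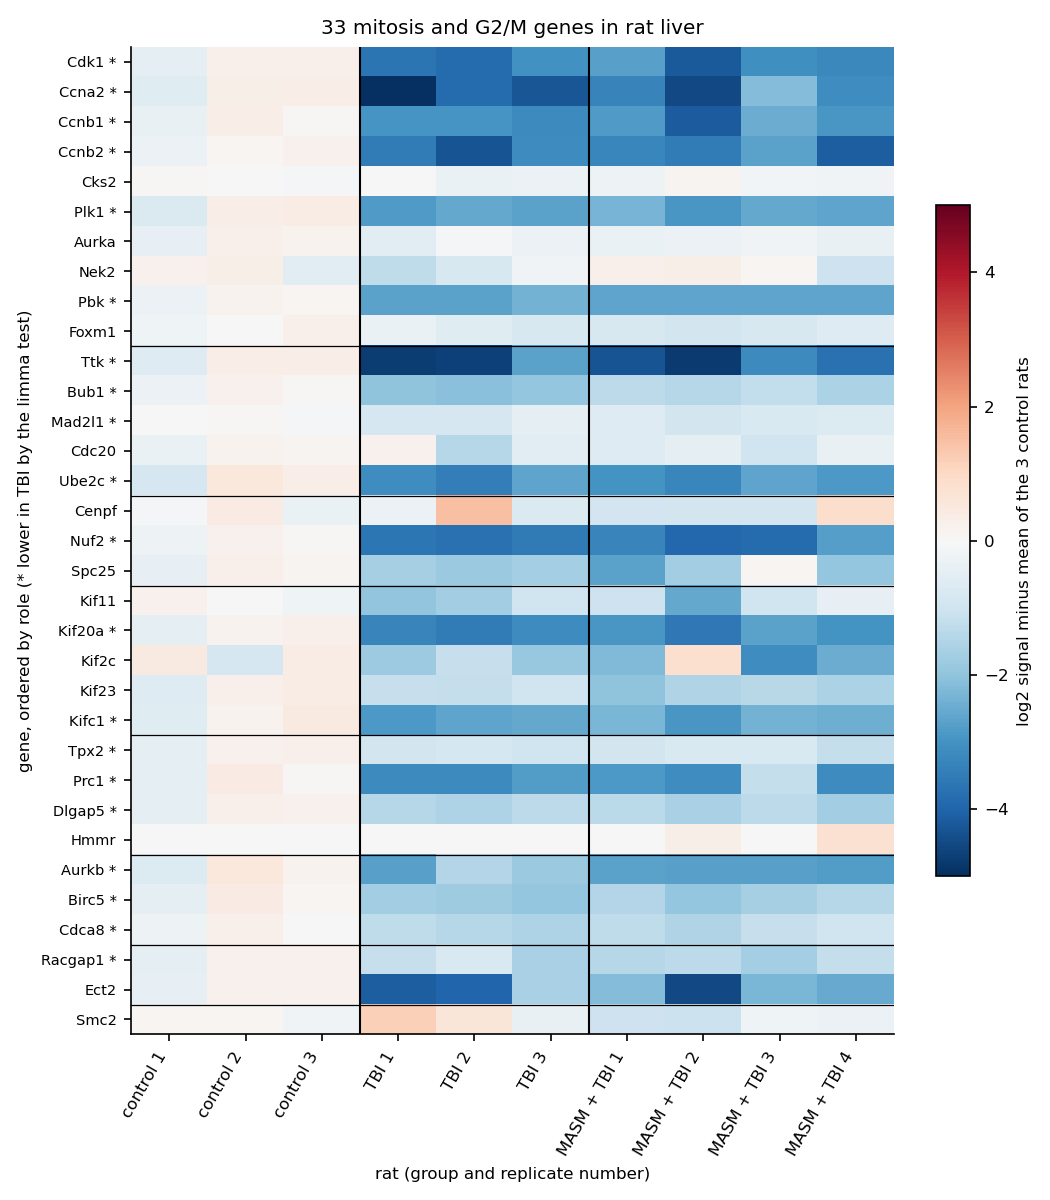
Log2 signal of 33 mitosis and G2/M genes (rows, ordered by role) in each of 10 rats (columns), as the difference from the mean of the 3 control rats (colour, log2 units). An asterisk marks the 20 genes lower in TBI by the limma test, and the blue rows continue through the 4 MASM + TBI rats, while Cks2 and Aurka stay pale.

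Among the kinases and cyclins that commit a cell to mitosis, 6 of 10 measured genes were lower in TBI and 7 of 10 in MASM + TBI. Cdk1, the kinase that drives entry into mitosis, had a normalized log2 signal of 8.87, 9.62 and 9.64 in the control rats, 5.74, 5.55 and 6.37 in the TBI rats, and 6.67, 5.19, 6.32 and 6.15 in the MASM + TBI rats. No irradiated rat reached the lowest control rat. Cdk1 was 11.3-fold lower in TBI (log2 difference -3.50 ± 0.40 SE, adjusted p = 0.00329) and 9.82-fold lower in MASM + TBI (-3.30 ± 0.37, adjusted p = 0.00383).

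Ccnb1, the B-type cyclin that activates Cdk1, was at 6.41, 7.12 and 6.87 in control rats, 3.85, 3.83 and 3.63 in TBI rats, and 3.97, 2.64, 4.31 and 3.88 in MASM + TBI rats. It fell by 3.03 on the log2 scale in TBI (SE 0.39, adjusted p = 0.0056) and by 3.1 in MASM + TBI (SE 0.36, adjusted p = 0.00454), where 2 of 4 arrays were well above background. The second B-type cyclin, Ccnb2, was at 6.12, 6.49 and 6.60 in control rats, 2.92, 2.09 and 3.24 in TBI rats, and 3.14, 2.89, 3.74 and 2.30 in MASM + TBI rats. For both cyclins every irradiated rat lay below every control. The scanner placed Ccnb2 well above background in 1 of 3 TBI rats and in 0 of 4 MASM + TBI rats. By its fitted mean, which includes the dim arrays, it was 12.6-fold lower in TBI (adjusted p = 0.00261) and 10.5-fold lower in MASM + TBI (adjusted p = 0.00317). As a bound, Ccnb2 was at least 5.90-fold lower in MASM + TBI. Such a bound sets the mean of the brighter group against the lowest signal still well above background on the dim arrays. The probe's own signal is used where that is higher. That lowest signal was on average higher on MASM + TBI than on TBI arrays, so bounds cannot be compared between these groups. By fitted means, dim arrays included, the falls in TBI and MASM + TBI were 5.92-fold and 6.23-fold for Pbk and 12.4-fold and 11.0-fold for Nuf2. They were 8.33-fold and 5.96-fold for Prc1, and 4.05-fold and 6.60-fold for Aurkb.

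Ccna2, the cyclin of S phase and G2, was at 6.14, 7.04 and 7.07 in control rats, 1.69, 2.91 and 2.48 in TBI rats, and 3.42, 2.24, 4.59 and 3.63 in MASM + TBI rats. It was not well above background on any TBI array and was at least 14.7-fold lower there (adjusted p = 0.00595), and 9.73-fold lower by its fitted mean in MASM + TBI, where 1 of 4 arrays measured it well above background (adjusted p = 0.0191). The latter call was lost without control rat 2 or 3 or MASM + TBI rat 1 or 4 (log2 difference -3.33 to -3.12). No array had its second probe well above background. Plk1, the polo-like kinase needed for spindle assembly and mitotic exit, was at 7.78, 8.86 and 8.90 in control rats, 5.67, 5.94 and 5.85 in TBI rats, and 6.20, 5.61, 5.97 and 5.87 in MASM + TBI rats. Its irradiated rats lay close together and well below the controls, 6.48-fold lower in TBI (adjusted p = 0.00264) and 6.07-fold lower in MASM + TBI (adjusted p = 0.00275). Pbk, a mitotic serine/threonine kinase, ranged from 3.72 to 4.19 in control rats, from 1.34 to 1.66 in TBI rats and from 1.36 to 1.39 in MASM + TBI rats. It was at least 2.24-fold lower in TBI (adjusted p = 0.000154) and at least 1.12-fold lower in MASM + TBI (adjusted p = 0.000146), and 2 of 3 control arrays but no irradiated array were well above background for it.

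The other 4 genes of this role were not called in TBI. Cks2, a small subunit that binds cyclin-dependent kinases, was at 7.14, 7.09 and 7.02 in control rats, 7.10, 6.74 and 6.78 in TBI rats, and 6.83, 7.24, 6.96 and 6.90 in MASM + TBI rats. These ranges overlap, and the 95% interval of the difference ran from -0.51 to 0.09 in TBI and from -0.38 to 0.18 in MASM + TBI. Aurka, the kinase of the centrosome and spindle poles, was at 5.56, 6.21 and 6.13 in control rats, 5.41, 5.92 and 5.68 in TBI rats, and 5.64, 5.67, 5.80 and 5.59 in MASM + TBI rats. Its groups overlapped as well, with an interval from -0.72 to 0.14 in TBI and from -0.69 to 0.11 in MASM + TBI. Foxm1, a transcription factor that activates many G2/M genes, was at 6.96, 7.14 and 7.41 in control rats, 6.85, 6.58 and 6.36 in TBI rats, and 6.38, 6.25, 6.38 and 6.51 in MASM + TBI rats. All irradiated rats lay below all controls, but the log2 difference of -0.57 in TBI did not pass the test (adjusted p = 0.0712), while Foxm1 was 1.73-fold lower in MASM + TBI (adjusted p = 0.0288). Without TBI rat 1 it passed in TBI (-0.70), and in MASM + TBI it no longer passed without control rat 2 or 3 or any MASM + TBI rat (-0.84 to -0.67). Nek2, a centrosomal kinase, was well above background on only 1 of the 10 arrays, at 3.53, 3.62 and 2.79 in control rats, 2.05, 2.52 and 3.14 in TBI rats, and 3.55, 3.60, 3.41 and 2.28 in MASM + TBI rats, and it was not called.

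**Figure D3:**
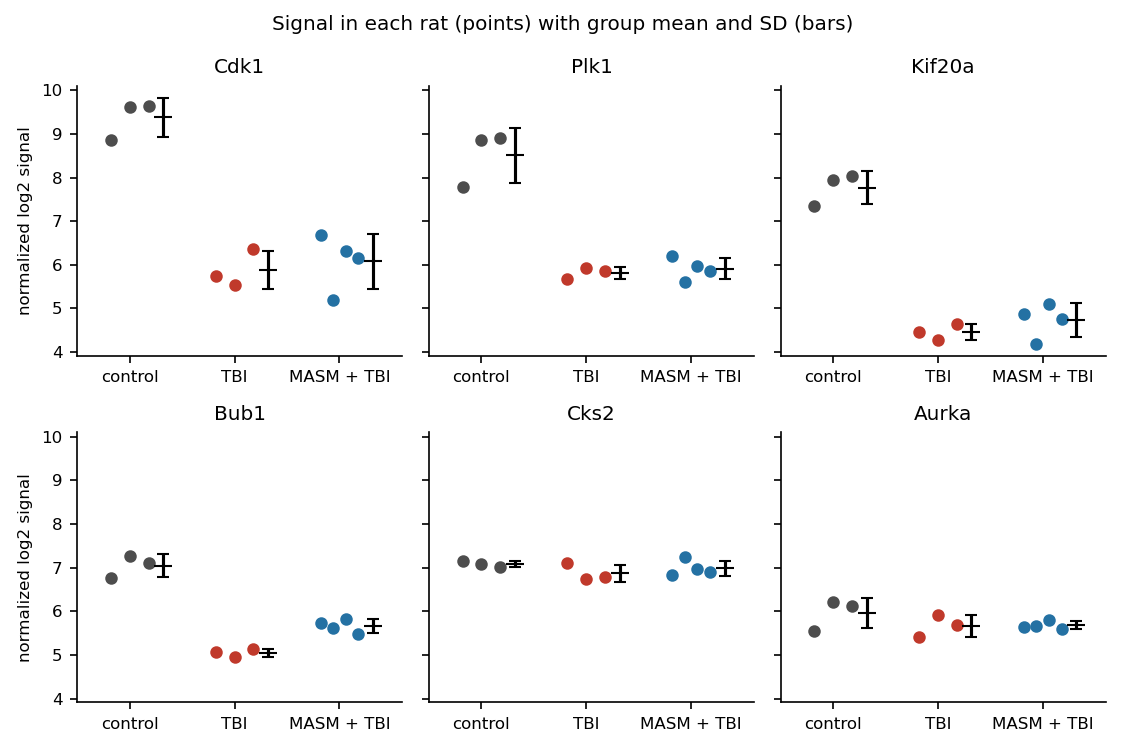
Normalized log2 signal (vertical axis) of Cdk1, Plk1, Kif20a, Bub1, Cks2 and Aurka in each rat (points) of the 3 groups (horizontal axis), with the group mean and SD (bars; n = 3, 3 and 4). Irradiated rats lie below all controls for the first 4 genes, and the groups overlap for Cks2 and Aurka; levels of different probes are not comparable.

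Of 5 measured genes of the spindle checkpoint and the anaphase-promoting complex, 4 were lower in TBI and 4 in MASM + TBI. Ttk, the kinase that starts checkpoint signalling at kinetochores, was at 5.80, 6.74 and 6.75 in control rats, 1.67, 1.75 and 3.76 in TBI rats, and 2.11, 1.63, 3.23 and 2.70 in MASM + TBI rats. TBI rat 3 stood above the other TBI rats but below every control, and 1 TBI array and no MASM + TBI array had Ttk well above background. By its fitted mean, which includes the dim arrays, Ttk was 16.4-fold lower in TBI (adjusted p = 0.011) and 16.1-fold lower in MASM + TBI (adjusted p = 0.0115). As a bound, it was at least 6.01-fold lower in MASM + TBI. The call in MASM + TBI was lost without control rat 2 or 3 (adjusted p = 0.0548 and 0.0552). Bub1, a checkpoint kinase at the kinetochore, was at 6.77, 7.27 and 7.12 in control rats, 5.06, 4.95 and 5.13 in TBI rats, and 5.74, 5.61, 5.83 and 5.47 in MASM + TBI rats. The 3 groups were fully apart, with MASM + TBI in the middle. Bub1 was 4.01-fold lower in TBI (-2.0 ± 0.14 SE, adjusted p = 0.000521) and 2.62-fold lower in MASM + TBI (-1.39 ± 0.13, adjusted p = 0.00202).

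Mad2l1, the checkpoint protein that holds back anaphase, was at 6.71, 6.78 and 6.62 in control rats, 5.88, 5.85 and 6.23 in TBI rats, and 6.04, 5.79, 5.96 and 6.01 in MASM + TBI rats. Irradiated and control rats did not overlap, yet the fall was small, 1.64-fold in TBI (adjusted p = 0.0158) and 1.68-fold in MASM + TBI (adjusted p = 0.0132), and without control rat 2 it passed in neither (-0.68 and -0.71). Ube2c, the ubiquitin-conjugating enzyme of the anaphase-promoting complex, was at 6.33, 7.70 and 7.53 in control rats, 4.10, 3.74 and 4.54 in TBI rats, and 4.21, 3.92, 4.54 and 4.32 in MASM + TBI rats. All 7 irradiated rats lay below every control, and the gene was 8.35-fold lower in TBI (adjusted p = 0.00388) and, with 1 of 4 arrays well above background, 7.67-fold lower by its fitted mean in MASM + TBI (adjusted p = 0.00428). Cdc20, the activator of that complex and the target of the checkpoint, was at 7.67, 8.17 and 8.12 in control rats, 8.22, 6.57 and 7.42 in TBI rats, and 7.33, 7.51, 7.01 and 7.62 in MASM + TBI rats. TBI rat 1 exceeded all controls. Cdc20 did not pass the test, with intervals from -1.44 to 0.27 in TBI and from -1.42 to 0.18 in MASM + TBI.

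At the kinetochore, 1 of 3 measured genes was lower. Nuf2, a subunit of the complex that binds microtubules, was at 5.35, 5.83 and 5.69 in control rats, 2.00, 1.90 and 2.09 in TBI rats, and 2.34, 1.69, 1.76 and 2.89 in MASM + TBI rats. It was well above background on every control array and on no irradiated array. That makes it at least 6.85-fold lower in TBI (adjusted p = 0.000854) and at least 3.44-fold lower in MASM + TBI (adjusted p = 0.000941). With normexp the log2 difference of Nuf2 was -0.47 in TBI and -0.48 in MASM + TBI, short of the minimum fold, and both calls were lost. Spc25, a subunit of the same complex, was at 4.35, 5.04 and 4.92 in control rats, 3.10, 2.92 and 3.07 in TBI rats, and 2.07, 3.03, 4.88 and 2.85 in MASM + TBI rats. MASM + TBI rat 3 lay among the controls. Spc25 was not called (log2 difference -1.74 in TBI, adjusted p = 0.13, and -1.56 in MASM + TBI, adjusted p = 0.199), but without MASM + TBI rat 3 the difference passed in both, at -1.74 and -2.12. The brightest probe of Cenpf, a large protein of the outer kinetochore, was well above background on 1 of the 10 arrays, at 2.41, 2.93 and 2.16 in control rats, 2.20, 4.0 and 1.78 in TBI rats, and 1.53, 1.57, 1.58 and 3.38 in MASM + TBI rats, and was not called. Its other probe was well above background on 1 control array and passed the test in both irradiated groups, at least 1.84-fold lower in TBI.

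The kinesins are motors that slide or depolymerise microtubules, and 2 of 5 measured were lower in TBI and 3 of 5 in MASM + TBI. Kif20a, a motor of the central spindle and cytokinesis, was at 7.34, 7.95 and 8.03 in control rats, 4.47, 4.28 and 4.64 in TBI rats, and 4.88, 4.19, 5.11 and 4.77 in MASM + TBI rats. It was well above background on all 10 arrays, 9.90-fold lower in TBI (-3.31 ± 0.26 SE, adjusted p = 0.000697) and 8.19-fold lower in MASM + TBI (-3.03 ± 0.24, adjusted p = 0.000893). Kifc1, a minus-end-directed motor that bundles spindle microtubules, was at 7.47, 8.24 and 8.53 in control rats, 5.19, 5.45 and 5.51 in TBI rats, and 5.80, 5.18, 5.73 and 5.63 in MASM + TBI rats. The irradiated rats spanned less than 1 log2 unit, all below the controls, 6.47-fold lower in TBI (adjusted p = 0.002) and 5.64-fold lower in MASM + TBI (adjusted p = 0.00253).

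Kif23, the motor of the centralspindlin complex, was at 5.30, 6.23 and 6.34 in control rats, 4.81, 4.75 and 4.98 in TBI rats, and 3.96, 4.47, 4.57 and 4.36 in MASM + TBI rats. All irradiated rats lay below control rat 1, the lowest control. The difference just missed the threshold in TBI (-1.11, adjusted p = 0.0532) and passed in MASM + TBI, 3.06-fold lower (adjusted p = 0.0166), without control rat 1 it passed in TBI as well (-1.44), and without control rat 2 or 3 it failed in MASM + TBI (-1.48 and -1.42). Kif11, the motor that pushes spindle poles apart, was at 4.43, 4.19 and 4.01 in control rats, 2.25, 2.46 and 3.22 in TBI rats, and 3.16, 1.63, 3.20 and 3.81 in MASM + TBI rats. Its irradiated rats did not overlap with the controls, but the brightest probe was not called (adjusted p = 0.11 in TBI and 0.219 in MASM + TBI), and without MASM + TBI rat 2 it passed in TBI (-1.57). Its dimmer probe passed in both irradiated groups, although no array had it well above background. Kif2c, a microtubule depolymerase at centromeres, was at 5.0, 3.73 and 4.95 in control rats, 2.74, 3.40 and 2.65 in TBI rats, and 2.36, 5.35, 1.47 and 2.06 in MASM + TBI rats. MASM + TBI rat 2 exceeded every control rat, and Kif2c was not called in TBI or in MASM + TBI, in the latter until that rat was left out (log2 difference -1.75 with it and -2.60 without it).

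Of 4 measured spindle assembly genes, 3 were lower in both irradiated groups. Dlgap5, which stabilises spindle microtubules, was at 6.53, 7.22 and 7.19 in control rats, 5.56, 5.45 and 5.68 in TBI rats, and 5.63, 5.36, 5.68 and 5.25 in MASM + TBI rats. It was 2.67-fold lower in TBI (adjusted p = 0.00765) and 2.83-fold lower in MASM + TBI (adjusted p = 0.0057). Tpx2, which starts spindle assembly and activates Aurka, was at 5.19, 5.84 and 5.87 in control rats, 4.71, 4.75 and 4.64 in TBI rats, and 4.72, 4.88, 4.88 and 4.45 in MASM + TBI rats. Irradiated and control rats did not overlap, and Tpx2 was 1.91-fold lower in TBI (adjusted p = 0.031) and 1.86-fold lower in MASM + TBI (adjusted p = 0.0389). In TBI that call was lost without control rat 2 or 3, any TBI rat or MASM + TBI rat 1 (-0.96 to -0.81), and in MASM + TBI without any rat but control rat 1 (-0.95 to -0.78). Prc1, which crosslinks the microtubules of the central spindle, ranged from 4.19 to 5.05 in control rats, from 1.45 to 1.87 in TBI rats and from 1.49 to 3.48 in MASM + TBI rats. It was at least 3.49-fold lower in TBI (adjusted p = 0.0141) and at least 1.75-fold lower in MASM + TBI (adjusted p = 0.0286), and was well above background on 2 control arrays and on no irradiated array. Both calls were lost without control rat 2 or 3 (adjusted p = 0.0505 and 0.0515 in TBI), and the latter also without MASM + TBI rat 1, 2 or 4 (adjusted p from 0.0652 to 0.104 over these 5 cases). Hmmr, a microtubule-binding protein of spindle poles, was not well above background on any of the 10 arrays, at 1.35, 1.32 and 1.34 in control rats, 1.30, 1.30 and 1.33 in TBI rats, and 1.33, 1.64, 1.35 and 2.10 in MASM + TBI rats, and is given no fold.

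Of the chromosomal passenger complex, which corrects chromosome attachment and later guides cytokinesis, all 3 subunits on the list were lower in both irradiated groups, whereas its scaffold Incenp, a gene of the other mitosis list, was not called in either (log2 difference -0.94 in TBI, adjusted p = 0.145, and -1.07 in MASM + TBI, adjusted p = 0.126). Birc5, also known as survivin, was at 7.58, 8.51 and 8.16 in control rats, 6.35, 6.30 and 6.16 in TBI rats, and 6.62, 6.17, 6.42 and 6.67 in MASM + TBI rats. The lowest control exceeded the highest irradiated rat, and Birc5 was 3.52-fold lower in TBI (adjusted p = 0.0051) and 3.06-fold lower in MASM + TBI (adjusted p = 0.00778). Aurkb, the kinase of the complex, ranged from 3.50 to 4.72 in control rats, from 1.47 to 2.74 in TBI rats and from 1.42 to 1.52 in MASM + TBI rats. It was well above background on 2 control arrays and on no irradiated array, at least 2.55-fold lower in TBI (adjusted p = 0.0203) and at least 1.28-fold lower in MASM + TBI (adjusted p = 0.00588). In TBI the call was lost without control rat 2 or 3 (adjusted p = 0.0591 and 0.0718). Cdca8, also known as borealin, ranged from 4.17 to 4.66 in control rats, from 2.86 to 3.13 in TBI rats and from 2.91 to 3.43 in MASM + TBI rats, with no overlap between irradiated and control rats. With 1 of 3 TBI arrays well above background, it was 2.67-fold lower in TBI by its fitted mean (adjusted p = 0.00349). In MASM + TBI it was 2.34-fold lower by its fitted mean and at least 1.49-fold lower as a bound (adjusted p = 0.00588).

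In cytokinesis, Racgap1, the partner of Kif23 in centralspindlin, was at 5.36, 6.03 and 6.04 in control rats, 4.67, 5.06 and 4.19 in TBI rats, and 4.38, 4.51, 4.12 and 4.63 in MASM + TBI rats. It was 2.25-fold lower in TBI (adjusted p = 0.0404) and 2.64-fold lower in MASM + TBI (adjusted p = 0.024). In TBI the call was lost without control rat 2 or 3, TBI rat 1 or 3, or MASM + TBI rat 1, 2 or 4 (-1.19 to -0.95), and in MASM + TBI without control rat 2 or 3 or MASM + TBI rat 1, 2 or 3 (-1.43 to -1.29). All 3 of its probes passed the test in both groups, but the sizes differed: both other probes were well above background on no TBI array and were at least 7.22-fold and at least 4.04-fold lower there. Ect2, which activates the small GTPase that contracts the cleavage furrow, was at 6.55, 7.15 and 7.15 in control rats, 2.83, 3.00 and 5.31 in TBI rats, and 4.78, 2.42, 4.66 and 4.43 in MASM + TBI rats. Every irradiated rat lay below every control, but TBI rat 3 and MASM + TBI rat 2 stood apart within their groups. The log2 difference of -3.24 ± 0.79 SE missed the threshold in TBI (adjusted p = 0.0517) and passed without TBI rat 3 (-4.04) or MASM + TBI rat 2 (-3.24). That of -2.88 in MASM + TBI also missed it (adjusted p = 0.0834) and passed without TBI rat 3, at the same value.

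Smc2, a condensin subunit that compacts mitotic chromosomes, was the member whose TBI mean stood highest above its control mean. It was at 3.81, 3.80 and 3.52 in control rats, 4.90, 4.32 and 3.35 in TBI rats, and 2.66, 2.64, 3.51 and 3.42 in MASM + TBI rats. It was well above background on 1 control array, all 3 TBI arrays and no MASM + TBI array. Neither difference from control passed the test (0.48 in TBI, adjusted p = 0.502, and adjusted p = 0.439 in MASM + TBI), and no array had its second probe well above background.

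More than 1 probe read 9 of the members. All probes of Plk1, Ttk, Kifc1 and Racgap1 passed the test with a lower signal in both irradiated groups (2.49% of all probes were lower in TBI and 1.43% in MASM + TBI), 1 of 2 probes passed for Ccna2, Cenpf and Kif11, and 0 of 2 for Ect2 and Smc2.

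**Figure D4:**
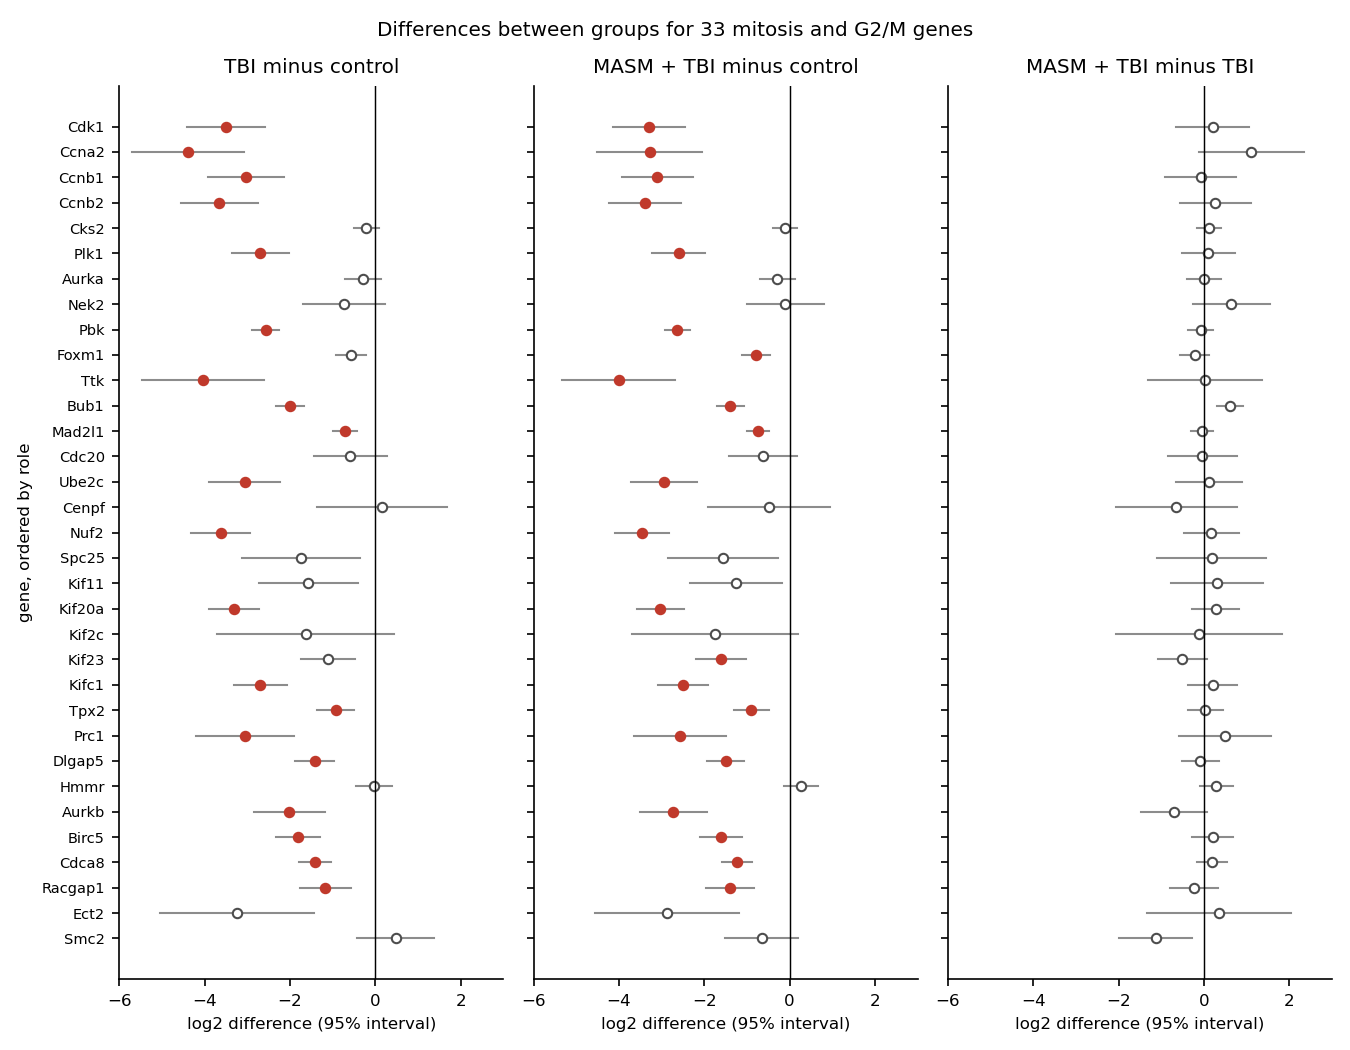
Log2 difference with its 95% interval (horizontal axis) for 33 mitosis and G2/M genes (vertical axis, ordered by role) in 3 comparisons, with filled points for genes that passed the limma test. In TBI and in MASM + TBI against control 20 and 22 points are filled and left of 0, and between MASM + TBI and TBI none is filled.

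The comparison of MASM + TBI with TBI asks whether MASM changed these genes in irradiated rats. None of the 33 genes passed the limma test (0 lower and 0 higher, where 0.603% and 0.261% of all genes were called). At an unadjusted p under 0.05 with a fold of at least 1.5, limma gave 1 lower gene, Smc2 (6.09% of all genes), and 1 higher gene, Bub1 (1.73%), and the methods' t-test gave 0 lower and 1 higher. The median log2 difference was 0.11, and 0.0088 over all genes. Every MASM + TBI rat lay below every TBI rat for 1 gene, Kif23 (7.49% of all genes), and above for 2, Bub1 and Hmmr (9.75%). Of the 21 genes that were well above background on at least 1 array of both groups, the 95% interval of the difference stayed within 2-fold in either direction for 15 and reached 2-fold for 6, so that a change of that size was not excluded in these 6 with 3 and 4 rats.

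Bub1 was 0.62 higher on the log2 scale in MASM + TBI than in TBI (95% interval 0.31 to 0.92, adjusted p = 0.0712), and all 4 MASM + TBI rats lay above all 3 TBI rats. It passed the test without control rat 1 (0.62), which enters only the estimate of the spread. Smc2, well above background on no MASM + TBI array, differed by at least 1.27-fold with MASM + TBI as the lower group but did not pass (adjusted p = 0.175), with MASM + TBI rats 3 and 4 inside the range of the TBI rats, and it passed without TBI rat 3 (adjusted p = 0.0454). For Cdk1 the difference was 0.20 (interval -0.65 to 1.05), for Plk1 0.10 (-0.53 to 0.72), and for Kif20a 0.27 (-0.28 to 0.83). Ccna2, which no TBI array had well above background, was not called (adjusted p = 0.345).

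The share of the 43 probes well above background was lower in the irradiated livers. It was 67.4%, 81.4% and 76.7% in the control rats, 44.2%, 51.2% and 60.5% in the TBI rats, and 39.5%, 39.5%, 41.9% and 46.5% in the MASM + TBI rats. Over these 43 probes the ranges of control and irradiated rats did not overlap. Over the brightest probe of each of the 33 genes they met, at 75.8% to 87.9% in control, 54.5% to 75.8% in TBI and 48.5% to 57.6% in MASM + TBI, where control rat 1 and TBI rat 3 had the same share. Over the brightest probe of all 13426 genes the share was 66.5% to 69% in control, 73% to 77.5% in TBI and 65.8% to 68.8% in MASM + TBI, so that it was higher in TBI than in control for genes at large. Of the 33 genes, 23 were well above background on every control array, 13 on every array and 1, Hmmr, on no array.

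**Figure D5:**
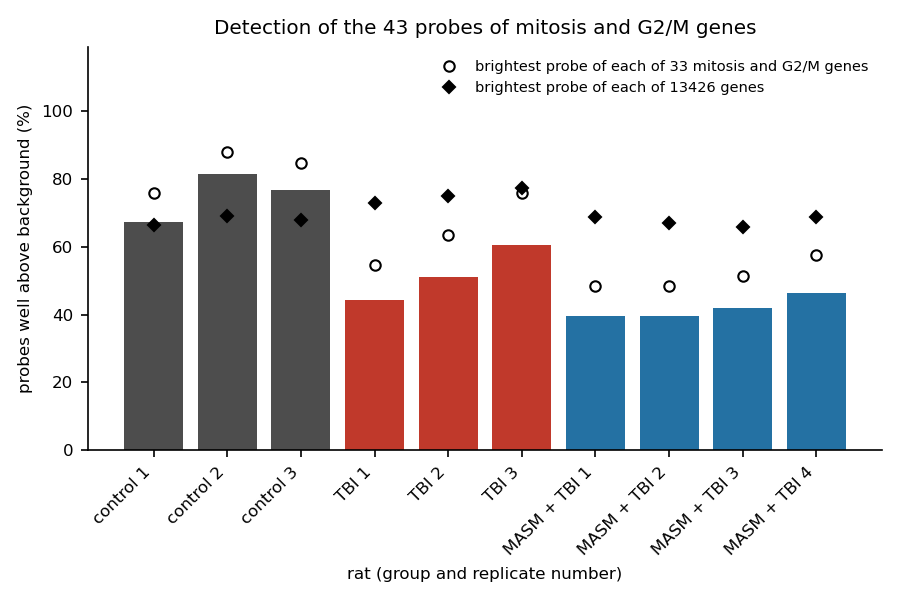
Share of the 43 probes of mitosis and G2/M genes that were well above background (bars, %) in each of 10 rats, with the share over the brightest probe of each of the 33 genes (circles) and of 13426 genes (diamonds). The bars lie at 67.4% or higher in control rats and at 60.5% or lower in irradiated rats, while the circles of control rat 1 and TBI rat 3 both lie at 75.8%.

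The genes also differed among rats of the same group. Control rat 1 was the lowest of the 3 control rats for 25 of the 33 genes (75.8%, against 31.6% of all genes). Among the 23 genes well above background on every control array it was the lowest for 21 (91.3%, against 34.5% of all such genes). Without control rat 1 the median log2 difference over the 33 genes was -1.95 in TBI and -1.77 in MASM + TBI. Among MASM + TBI rats, rat 2 was the lowest for 17 genes (51.5%, against 25.4% of all genes) and rat 3 the highest for 14 (42.4%, against 32.4%). In TBI rat 3 was the highest for 17 (51.5%, against 37.2%).

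Within slide 1, where MASM + TBI rat 3 lay beside the 3 controls, it was below every control rat for 29 of the 33 genes (87.9%, against 28.3% of all genes). The median difference between this rat and the control mean was -1.39. With slide as a fixed block, which leaves this 1 rat against the controls, 2 genes passed the test, Pbk and Nuf2, where 0.506% of all genes were lower.

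Other genes of the cell cycle, taken from lists chosen with earlier results known, are given by counts, each to be read against the 2.74% lower and 2.44% higher of all genes in TBI and the 1.97% and 0.931% in MASM + TBI. Of 38 other mitosis genes, 13 were lower and 0 higher in TBI (20 and 1 by unadjusted p and the same fold), and 12 were lower and 1 higher in MASM + TBI, with median log2 differences of -0.62 and -0.69. The largest falls in TBI included Kif22, a chromosome-bound kinesin (-3.50), the centromere protein Cenpt (-3.50) and Espl1, the separase that cuts cohesin (-3.40). Kif22 and Cenpt were well above background on 1 of 3 TBI arrays and Espl1 on 2 of 3, so their fitted means include dim arrays. Pimreg, a mitotic regulator, was at least 6.20-fold lower. Zwint and Bub3, the brightest that were not called, differed by -0.19 and -0.02 in TBI. The gene that was higher was Gtse1, a microtubule-binding protein of G2 and mitosis that also binds p53, at 3.55, 4.27 and 4.85 in control rats, 4.92, 5.39 and 5.23 in TBI rats, and 6.12, 6.32, 6.40 and 6.33 in MASM + TBI rats (4.20-fold higher in MASM + TBI, adjusted p = 0.00685; 0.96 in TBI, adjusted p = 0.0931). In MASM + TBI against TBI, 1 of these 38 genes, Cdca2, a chromosomal partner of protein phosphatase 1, passed the test with a higher signal (adjusted p = 0.0187). No array of either group had Cdca2 well above background, and 0.261% of all genes were called higher. Every MASM + TBI rat lay above every TBI rat for 10 of the 38, against 9.75% of all genes, and below for 1, against 7.49%.

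Of 18 regulators of the G2/M gate and the anaphase-promoting complex, 4 were lower in TBI (2.74% of all genes) and 3 in MASM + TBI (1.97%), with median differences of -0.20 and -0.21. The 4 in TBI were Fbxo5, the inhibitor of the anaphase-promoting complex (at least 2.30-fold lower), the Cdk1-inhibiting kinases Pkmyt1 (-1.54) and Wee1 (-1.19), and the checkpoint kinase Chek2 (-1.26). Anapc5 and Anapc2, the brightest that were not called, differed by -0.23 and -0.30. Among 8 genes of the DREAM and MuvB complexes, which bind the CHR, 1 was lower in TBI, the chromatin subunit Rbbp4 (-0.59), and 1 was higher in MASM + TBI, Mybl2, the B-Myb subunit that activates G2/M genes. Mybl2 was at 4.57, 4.79 and 5.23 in control rats, 5.92, 6.65 and 7.65 in TBI rats, and 6.69, 8.21, 7.64 and 7.56 in MASM + TBI rats. All irradiated rats lay above all controls, and the gene was 6.34-fold higher in MASM + TBI (adjusted p = 0.0216), with a log2 difference of 1.88 in TBI (adjusted p = 0.0614).

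Of 26 genes of DNA replication and S phase, 12 were lower and 1 higher in TBI (2.74% and 2.44% of all genes), and 8 lower and 1 higher in MASM + TBI (1.97% and 0.931%). The falls included the helicase subunit Mcm6 (-2.41), the transcription factor E2f1 (-2.36) and the replication factor Cdc45 (-1.82), and Tyms, the thymidylate synthase, was higher (0.93 in TBI and 0.97 in MASM + TBI). Of 16 p53 targets of growth arrest, 11 were higher and 1, Ccng2, lower in each irradiated group. Cdkn1a rose most, by 5.36 in TBI (adjusted p = 0.00013) and 4.80 in MASM + TBI (adjusted p = 0.000146).

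Some markers of lymphocytes and mast cells were also lower, where 2.74% of all genes were lower in TBI and 1.97% in MASM + TBI. Of 8 T lymphocyte markers, 3 were lower in TBI (Cd2, Cd3e and Cd3g) and 2 in MASM + TBI. Estimates lay below 0 for 5 of the 8 in TBI and for 6 in MASM + TBI, with the highest at 0.71 and 0.41. The summed linear signal of the list ranged from 613 to 845 in control rats, 346 to 533 in TBI rats and 256 to 461 in MASM + TBI rats. Cd3e and Cd5 were well above background on no array. Of 4 B lymphocyte markers 1 was lower, Cd79b, and 0 higher (0 also by unadjusted p and the same fold). Estimates of this list lay below 0 for 2 of the 4 in TBI and for 4 in MASM + TBI, with a summed signal of 202 to 218, 171 to 295 and 137 to 181. Of 5 mast cell markers 2 were lower in each irradiated group, Mcpt1 among them, with a summed signal of 131 to 156, 28.3 to 30.8 and 26.9 to 30.9. No array had 3 of these 5 well above background, and estimates lay below 0 for 4 of the 5 in each irradiated group. The part of lymphocytes and mast cells in the result was not tested. For the markers of Kupffer cells, natural killer cells, erythroid cells, neutrophils, sinusoidal endothelium and cholangiocytes no gene passed the limma test in TBI or in MASM + TBI, while by unadjusted p and the same fold up to 3 genes of a list were lower and up to 2 higher. Of 5 stellate cell markers 1 was lower, Lrat (-0.62 in TBI and -0.60 in MASM + TBI), with a median log2 difference over the list of -0.03 in TBI and -0.43 in MASM + TBI.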

How the data were processed

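The authors deposited, for each spot of each array, the intensity that Agilent Feature Extraction 10.7 made from a Cy3 scan: linear values, less the local background. The deposited value table held the same intensities, with a difference of 0 on every array. Control spots (1639 of 45018 per array) and outlier spots were left out, none was saturated, and the deposited values were converted to log2, brought to 1 common distribution over the 10 arrays by quantile normalization, and averaged per probe. The files carry accessions and no gene names, and 16968 probes obtained a symbol through the RefSeq gene table. A probe's share above background is the scanner's own call.

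Group means were fitted to all 10 arrays with limma 3.58.1 in R 4.3.3, with the Benjamini-Hochberg adjustment over 40945 probes. A gene was called at an adjusted p under 0.05 and a fold of at least 1.5. The t-test that the study names, run in Welch's form with folds of linear means, ran beside it as the methods' t-test, and the fits were tested on simulated data. Plots were made with matplotlib 3.10.9 in Python 3.11.15.

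All members are named, with a value per rat for those that were called and well above background on all control arrays and for those that were not called. Of the other cell cycle lists, up to 4 called genes of the largest change in each direction and up to 2 of the brightest that were not called are named, and Cdca2 was chosen after its values were seen. The members and lists were chosen with earlier results of these data known. Promoter sequences are RefSeq's of GRCr8, and no position is given for the probes. Alternatives were scaling to the 75th percentile, normexp (offset 50, on median pixel intensities), the value table, leaving out dim probes, 2-group models, another prior, blocks by replicate number or slide, no minimum fold, unadjusted p, and each rat left out. Same-numbered rats of different groups did not deviate together (correlations of -0.125 to 0.169), so the numbers were not taken as pairs.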

Additional observations from a re-analysis of the deposited data

Results flagged for a closer look

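In 4 of the genes, 1 MASM + TBI rat stood far from the other 3 by Dixon's test at the 95% level, in which chance marks about 1 in 20 groups, and 33 groups of 4 rats were tested. These values were 2.28 for Nek2 in rat 4, 3.38 for Cenpf in rat 4, 3.48 for Prc1 in rat 3 and 2.42 for Ect2 in rat 2, all as normalized log2 signal. Nek2, Cenpf and Prc1 were well above background on none of the MASM + TBI arrays, and Ect2 on 3 of 4. The control and TBI groups, with 3 rats each, were not tested in this way.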

How the results depend on the processing

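No gene that was called changed sign under any alternative run. Against control, the number of genes lower of 33 was 20 in TBI and 22 in MASM + TBI. With normexp it became 13 and 12 (1.25% and 1.19% of all genes, median log2 difference -0.31 and -0.37). There the calls of Pbk, Mad2l1, Nuf2, Tpx2, Prc1, Aurkb, Cdca8 and Racgap1 were lost in both comparisons (-0.47 to -0.17 in TBI). Those of Foxm1, Kif23 and Dlgap5 were lost in MASM + TBI, and Ect2 newly passed in both. The methods' t-test left 0 and 0 after adjustment (0.0149% and 0.0372% of all genes), and 24 and 24 by unadjusted p. In MASM + TBI the number was 12 with the replicate block (0.603% of all genes, median -1.54) and 14 without control rat 2 (1.01%). Slide as a fixed block left a median of -1.39 there. The replicate block left 17 in TBI (1.49% of all genes, median -1.74). Leaving out each rat in turn gave 15 to 21 genes in TBI (1.5% to 2.79% of all genes) and 14 to 22 in MASM + TBI (0.931% to 2.35%). The medians ran from -1.95 to -1.61 and from -1.77 to -1.43. For MASM + TBI against TBI it gave 0 to 1 lower (0.268% to 2.21% of all genes) and 0 to 1 higher (0.119% to 0.454%). In that comparison, scaling to the 75th percentile called 1 lower, Smc2 (2.63% of all genes), and 1 higher, Hmmr (7.08%). No array had Hmmr well above background. Slide as a random block called 0 lower (2.08% of all genes) and 1 higher, Bub1 (0.804%). By unadjusted p, 1 was lower (6.09%) and 1 higher (1.73%). For single genes, 54 of the alternative values fell short of the threshold and 19 newly passed it in TBI against control, 99 and 6 in MASM + TBI against control, and 5 newly passed in MASM + TBI against TBI. The cause was not tested, except that the fixed slide block leaves 1 MASM + TBI rat against the controls. With the looser flag for a positive and significant signal, the share of the 43 probes was 93% to 95.3% in control, 72.1% to 86% in TBI and 67.4% to 83.7% in MASM + TBI. Dim signal limits the genes given as bounds.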
